A study of Arabidopsis thaliana with 24 samples.

Results

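Transcript levels in leaves of the Arabidopsis thaliana line K>R 1-9 were set against those of wild type (WT) under mock treatment. In K>R 1-9 plants the only HTA11 supplied to an H2A.Z null background has arginine in place of all 9 lysines of the N-terminal tail. The comparison uses 6 of the series' 24 libraries, chosen by their titles: 3 biological replicates of K>R 1-9 mock leaves and 3 of WT mock leaves. It covers the 13874 genes, of 22279 in each file, that passed a count filter. For context, 4 further groups of 3 libraries are cited. These are Delta28 mock leaves (the same null background with HTA11 lacking its first 28 residues), K>R 3 mock leaves (the same background with HTA11 altered at the third lysine alone, residue 13), and K>R 1-9 and WT leaves given abscisic acid (ABA).

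All plants were 3 weeks old. Leaves were brushed for a 4 h treatment with DMSO in water (mock) or with 10 uM ABA, the hormone of drought stress, each with 0.01% Silwet L-77 as wetting agent. RNA from leaf tissue was counted by its 3′ ends. In such bulk samples fewer cells of a type and less RNA per cell cannot be told apart. The sources used here do not give the promoter that drives the supplied HTA11, the alleles of the null background or the number of independent lines. No group carried unaltered HTA11 in the null background, so the 9 replaced lysines, the null background and the level of the supplied gene cannot be told apart in a difference from WT.

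H2A.Z is a variant of histone H2A that the SWR1 complex places in nucleosomes next to transcription start sites. Its N-terminal tail projects from the nucleosome, and the lysines of the tail are sites of acetylation. Replacement of lysine by arginine keeps the positive charge and removes the group that is acetylated. In Arabidopsis, plants that lack H2A.Z or SWR1 subunits are known for early flowering, small leaves and altered expression of heat, phosphate and defence genes. The main H2A.Z genes are HTA8, HTA9 and HTA11.

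The first 40 codons of HTA11, the supplied gene, and of HTA9, the other H2A.Z gene that passed the count filter, show where the altered residues lie. Sequences are the coding strand of the RefSeq annotation of TAIR10.1, both from the plus strand, with lysine codons in capitals.
HTA11: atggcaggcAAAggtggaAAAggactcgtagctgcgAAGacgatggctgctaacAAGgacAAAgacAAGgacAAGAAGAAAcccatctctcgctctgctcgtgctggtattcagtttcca
HTA9: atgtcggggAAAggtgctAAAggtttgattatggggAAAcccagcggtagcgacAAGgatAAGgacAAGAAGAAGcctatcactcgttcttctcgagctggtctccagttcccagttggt
HTA11 has 9 lysine codons in this stretch, at codons 4, 7, 13, 19, 21, 23, 25, 26 and 27, counted from the start codon as 1. The third of them is codon 13, the residue changed in K>R 3. HTA9 has 8, at codons 4, 7, 13, 19, 21, 23, 24 and 25. Counts at the 3′ end lie outside these codons, so the RNA level does not check the replacement.

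The 6 libraries held 1565524 to 10667916 counts. WT mock replicate 2 was the shallowest and WT mock replicate 3 the deepest of them. Of the 22279 genes, those on the minus strand took 12.9% to 17.2% of the counts of these libraries. The deposited gene models lack the exon of lowest coordinate, which holds the 3′ end of a minus-strand gene, so a low or 0 count of such a gene is no sign of a low level. On a principal component analysis of the 6 libraries the first component (31.1% of variance) placed K>R 1-9 at 28.8 to 56.8 and WT at -72.0 to -13.3. The second (24.3%) set K>R 1-9 replicate 3, at -70.6, apart from replicates 1 and 2, at 51.9 and 38.1. Leaf identity was as labelled: genes of the photosystem antenna and Rubisco summed to 79110 to 122265 CPM in K>R 1-9 and 76522 to 118548 CPM in WT. CPM are counts scaled by effective library size. Shoot apex and pollen markers summed to 0.674 CPM at most, and STM, CLV3, WUS and LAT52 had 0 counts in all 6.

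Counts of HTA11 were far higher in K>R 1-9 than in WT, and those of HTA9 far lower. HTA11 (AT3G54560) was at 438, 420 and 491 CPM in the K>R 1-9 mock libraries, against 7.34, 7.88 and 5.12 CPM in the WT mock libraries. Every K>R 1-9 library lay more than an order of magnitude above every WT library. The log2 fold change was 6.10 (SE 1.07, edgeR adjusted p = 0.0154). Adjusted p here and below come from the quasi-likelihood test of edgeR, adjusted over all 13874 genes by the method of Benjamini and Hochberg. Without WT mock replicate 1, 2 or 3 the call was lost, with edgeR adjusted p up to 0.162, while a fit of all 6 libraries alone gave an edgeR adjusted p of 1.07e-05. The model's spread for HTA11 draws on K>R 3 mock leaves too, whose libraries were at 10.9, 788 and 36.0 CPM. Without the K>R 3 library at 788 CPM, mock replicate 2, the edgeR adjusted p was 9.04e-06. Delta28 mock leaves, which also carry a supplied HTA11, were at 10.1, 4.44 and 9.37 CPM. Their HTA11 log2 fold change against WT was 0.27 (SE 0.95, edgeR adjusted p = 0.975). Whether supplied and native HTA11 share the counted 3′ end was not tested. DESeq2 gave HTA11 no adjusted p, so there it is neither called nor a lost call.

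HTA9 (AT1G52740) was at 57.5, 59.5 and 53.8 CPM in K>R 1-9 mock leaves, against 303, 267 and 411 CPM in WT mock leaves. The K>R 1-9 values were tight and far below all WT values, with a log2 fold change of -2.52 (SE 0.19, edgeR adjusted p = 1.14e-07). This was the smallest adjusted p of the comparison, and HTA9 kept its call without any single library (edgeR adjusted p at most 4.22e-06). In Delta28 and K>R 3 mock leaves HTA9 lay at 57.4 to 66.0 and 53.9 to 59.1 CPM, which overlaps the K>R 1-9 range. The remaining HTA9 reads do not show whether a protein is made. HTA8, on the minus strand, had 0 counts in all 6 libraries, and its 3′ exon is missing from the deposited model. HTA4, a further H2A.Z gene, reached 0.878 CPM at most. In ABA leaves HTA11 was at 1008, 518 and 517 CPM in K>R 1-9 and 4.71, 9.42 and 9.79 CPM in WT.

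**Figure D1:**
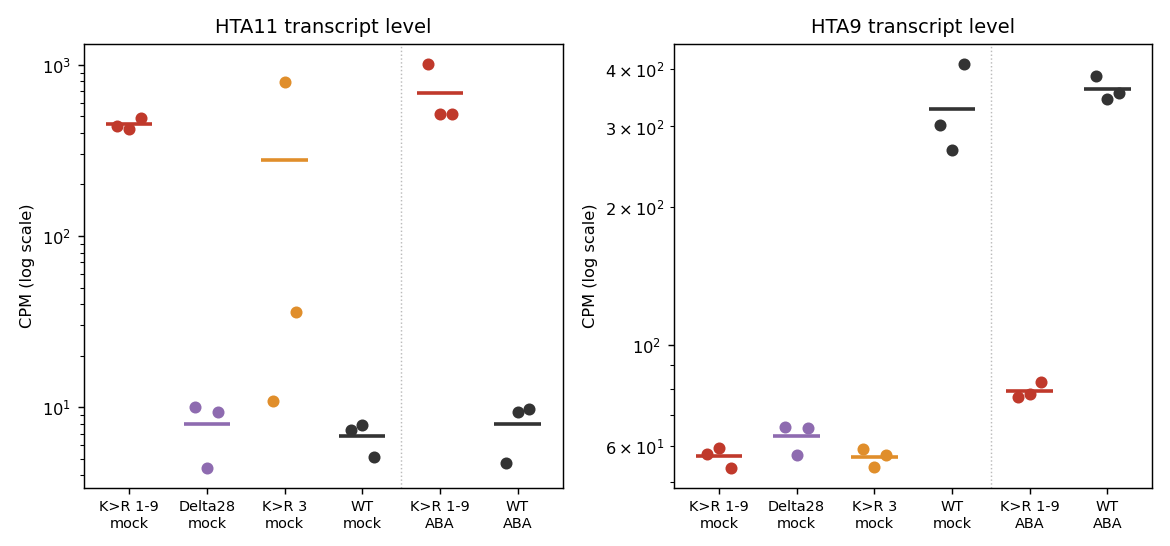
HTA11 (left) and HTA9 (right) levels in CPM on log axes, 1 point per library and a bar at the mean of 3 libraries, in mock groups (left of the dotted line) and ABA groups. HTA11 was at 420 to 491 CPM in K>R 1-9 mock leaves and 5.12 to 7.88 CPM in WT mock leaves, and HTA9 was at 53.8 to 59.5 CPM in K>R 1-9 mock leaves and 267 to 411 CPM in WT mock leaves.

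Few genes passed the test at this depth and replication. At an edgeR adjusted p below 0.05, 34 of 13874 genes were called (0.245%), 19 higher in K>R 1-9 (0.137%) and 15 lower (0.108%), and 29 of them differed at least 2-fold. Without the adjustment, 2004 genes had p below 0.05, which is 14.4% of those tested: 7.67% higher and 6.78% lower. DESeq2 called 338 genes, 56.8% of them higher, which included 33 of the 34. The one it did not call was HTA11, for which DESeq2 gave no adjusted p. A fit of the 6 libraries alone called 10 genes, 4 of them among the 34. In none of the 34 did the ranges of the groups overlap, as was so, over all genes tested, for 9.05% on the higher and 8.92% on the lower side. The 34 were called from these same libraries, so their separation follows largely from that choice and adds no support. The calls were sensitive to single libraries. Without WT mock replicate 3 HTA9 alone was called, without WT mock replicate 2 or 1 there were 8 or 17 calls, and without K>R 1-9 mock replicate 1, 2 or 3 there were 10, 42 or 11. Just inside the threshold lay AT1G14230, AMY1 and IBR1 (edgeR adjusted p = 0.0499), and just outside it AHP4 (0.0536) and AT2G13290 (0.0545).

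The called genes lay on all 5 chromosomes, with 12, 3, 4, 9 and 6 on chromosomes 1 to 5. ACT3, PAS1 and HTA11, on chromosome 3, have locus numbers close together (AT3G53750, AT3G54010 and AT3G54560). On the plus strand were 28 of the 34 called genes and 8005 of the 13874 tested. Chromosome 4 held 26.5% of the called genes and 15.5% of all genes tested, chromosome 1 35.3% and 26.1%. Their median level over the 6 libraries was 31.0 CPM, against 13.0 CPM for all genes tested, and their median exon number was 6.5 against 6. AT4G09200 and AT4G09310, annotated as SPRY domain proteins, had the same counts in all 24 libraries, so their reads could not be told apart and the pair counts as 1 observation. In the annotation 6 called genes overlap a gene on the other strand (PGDH, HTA9, ASP4, AT2G41620, AO1 and MK) and 5 a gene on the same strand (AT1G77310, AT2G41620, AT3G23600, AT4G21580 and AMY1), and reads there may belong to either gene.

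The 15 genes that fell in K>R 1-9 included, besides HTA9, 2 enzymes of isoprenoid and fatty acid synthesis, a nuclear matrix constituent-like protein and a nucleoporin. MK (AT5G27450), the mevalonate kinase of the cytosolic isoprenoid pathway, was at 0.830, 3.59 and 2.51 CPM in K>R 1-9, against 12.9, 12.4 and 18.2 CPM in WT. Its log2 fold change was -2.70 (SE 0.48, edgeR adjusted p = 0.0154). MOD1 (AT2G05990), the enoyl reductase of plastid fatty acid synthesis, was at 19.2, 30.3 and 12.9 CPM in K>R 1-9, against 89.6, 58.6 and 101 CPM in WT, with a log2 fold change of -2.01 (SE 0.32). For both genes the highest K>R 1-9 library lay well below the lowest WT library. LINC2 (AT1G13220), annotated as nuclear matrix constituent protein-like, was at 14.2, 22.5 and 14.3 CPM in K>R 1-9, against 36.9, 33.8 and 37.3 CPM in WT. AT2G41620, a scaffold nucleoporin related to yeast Nic96, was at 16.6, 16.6 and 11.8 CPM in K>R 1-9, against 39.2, 27.0 and 37.0 CPM in WT. AT2G41620 is a minus-strand gene, measured without its 3′ exon, and overlaps annotated genes on both strands. The log2 fold changes of LINC2 and AT2G41620 were -1.09 (SE 0.23) and -1.21 (SE 0.24). All 4 calls were lost without WT mock replicate 3 and without K>R 1-9 mock replicates 1 and 3, and those of LINC2 and AT2G41620 also without 1 or 2 other libraries, with edgeR adjusted p up to 0.198.

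ASP4 (AT1G62800), annotated as an aspartate aminotransferase, was not detected in K>R 1-9 mock leaves. It had 0 counts in the 3 K>R 1-9 mock libraries and 64 counts in WT mock leaves, at 1.63, 3.38 and 4.41 CPM. Against a floor of 3 counts over the K>R 1-9 group, ASP4 was at least 23.3-fold lower (edgeR adjusted p = 0.0154), a call lost without WT mock replicate 3 (edgeR adjusted p = 0.0981). It was detected in K>R 1-9 ABA leaves, at 1.57, 1.99 and 0.895 CPM, against 5.33, 4.71 and 4.42 CPM in WT ABA leaves. ASP4 is a minus-strand gene of few counts. AT1G77310, annotated as a wound-responsive family protein, was at 0.553, 0.674 and 0.627 CPM in K>R 1-9, against 2.45, 6.19 and 9.53 CPM in WT (log2 fold change -3.29, SE 0.59). AT1G23750, with an OB fold of the kind that binds single-stranded nucleic acids, was at 3.60, 2.25 and 3.14 CPM in K>R 1-9, against 17.3, 18.0 and 12.9 CPM in WT (log2 fold change -2.38, SE 0.44). The AT1G77310 call was lost without 4 of the 6 libraries, 1 at a time, and that of AT1G23750 without each of the 6, with edgeR adjusted p up to 0.198 and 0.0998.

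The other genes that fell were of mixed function. ACT3 (AT3G53750), an actin gene with close paralogs among which reads may be split, was at 13.8, 7.19 and 17.6 CPM in K>R 1-9, against 42.8, 45.0 and 58.4 CPM in WT (log2 fold change -1.91, SE 0.39). BBX16 (AT1G73870), a B-box zinc finger protein of the CONSTANS-like family, was at 31.0, 35.3 and 37.0 CPM in K>R 1-9, against 77.9, 105 and 97.8 CPM in WT (log2 fold change -1.44, SE 0.29). The SPRY domain pair AT4G09200 and AT4G09310 was at 9.68, 8.76 and 9.03 CPM in K>R 1-9, against 26.1, 18.0 and 28.2 CPM in WT (log2 fold change -1.41, SE 0.24). In each the K>R 1-9 libraries all lay below the WT libraries. AT5G24060, a pentatricopeptide repeat protein of the family that binds organelle RNA, AT5G49900, annotated as a GBA2-type glucosidase, and EMB3144, an AAA-type ATPase, had log2 fold changes of -1.67, -1.64 and -1.52. These 3 are minus-strand genes, measured without their 3′ exon. The SPRY pair lost its call only without WT mock replicate 3 (edgeR adjusted p = 0.116). AT5G49900 lost it without 4 of the 6 libraries (up to 0.105 in edgeR), and ACT3, BBX16, AT5G24060 and EMB3144 without each of the 6 (up to 0.198).

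The 19 genes that rose in K>R 1-9 included, besides HTA11, enzymes with the following values. SAG13 (AT2G29350), a short-chain dehydrogenase used as a marker of senescence and cell death, was at 259, 54.3 and 219 CPM in K>R 1-9, against 21.2, 13.5 and 22.1 CPM in WT. Replicate 2 was far below the other two K>R 1-9 libraries and still above all WT libraries, and the log2 fold change was 3.21 (SE 0.68, edgeR adjusted p = 0.0470). PGDH (AT1G17745), a 3-phosphoglycerate dehydrogenase of serine synthesis, was at 506, 314 and 614 CPM in K>R 1-9, against 97.9, 89.0 and 125 CPM in WT (edgeR adjusted p = 0.0203). BGLU11 (AT1G02850), a beta-glucosidase, was at 151, 100 and 102 CPM in K>R 1-9, against 33.7, 18.0 and 16.9 CPM in WT (log2 fold change 2.36, SE 0.42). AO1 (AT5G20960), an aldehyde oxidase, was at 47.4, 34.1 and 65.6 CPM in K>R 1-9, against 13.7, 12.4 and 14.4 CPM in WT (log2 fold change 1.85, SE 0.35). None of these ranges overlapped. All 4 calls were lost without WT mock replicates 2 and 3 and without K>R 1-9 mock replicate 1, and 3 of them without further libraries, with edgeR adjusted p up to 0.198.

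CSLG2 and AMY1 were close to undetected in WT mock leaves. CSLG2 (AT4G24000), a cellulose synthase-like protein, was at 80.6, 6.06 and 15.7 CPM in K>R 1-9, against 0.612, 0 and 0 CPM in WT. Its 735 counts against 3 gave a pooled ratio of 225 with a 95% interval (exact Clopper-Pearson, on the split of counts) of 76.5 to 1091. AMY1 (AT4G25000), a secreted alpha-amylase of starch breakdown, was at 7.88, 1.12 and 2.01 CPM in K>R 1-9 and had 0 counts in WT, so that it was at least 23.8-fold higher against a floor of 3 counts over the WT group. Intervals and floors cover counting error only. Replicate 1 held most of the reads of both genes in K>R 1-9. In WT leaves given ABA both genes were detected, CSLG2 at 225, 329 and 62.2 CPM and AMY1 at 2.82, 6.07 and 0.442 CPM. AMY1 is a minus-strand gene, and its edgeR adjusted p was 0.0499, lost without 5 of the 6 libraries (up to 0.307). CSLG2 (edgeR adjusted p = 0.0166) lost its call without K>R 1-9 mock replicate 1 or any single WT library (up to 0.198).

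The remaining 12 genes that rose included several with smaller changes. MSRB3 (AT4G04800), which repairs oxidised methionine, was at 133, 98.4 and 107 CPM in K>R 1-9, against 65.1, 53.5 and 55.1 CPM in WT (log2 fold change 0.96, SE 0.19). AT1G65820, a microsomal glutathione S-transferase, was at 635, 590 and 719 CPM in K>R 1-9, against 349, 351 and 336 CPM in WT (log2 fold change 0.91, SE 0.18). IBR1 (AT4G05530), a peroxisomal enzyme of the conversion of indole-3-butyric acid to auxin, was at 142, 144 and 129 CPM in K>R 1-9, against 87.3, 64.8 and 80.0 CPM in WT (log2 fold change 0.84, SE 0.18). All 3 stayed under 2-fold. PAS1 (AT3G54010), an immunophilin needed for elongation of very long chain fatty acids, was at 80.5, 95.7 and 96.7 CPM in K>R 1-9, against 50.2, 41.7 and 46.8 CPM in WT. Its log2 fold change was 0.97 (SE 0.18, edgeR adjusted p = 0.0166). AT4G01610, a cysteine proteinase, was at 415, 379 and 416 CPM in K>R 1-9, against 224, 153 and 123 CPM in WT (log2 fold change 1.27, SE 0.27). AT5G32440, with a ubiquitin-binding CUE domain, AT4G21580, a zinc-binding dehydrogenase, AT3G23600 and AT4G39955, both alpha/beta-hydrolases, and AT1G14230, a nucleoside phosphatase, had log2 fold changes of 0.88, 1.02, 1.02, 2.17 and 1.51. AT1G58225 and AT1G64360, of unknown function, had 3.42 and 1.85. Each of these 12 calls was lost without WT mock replicate 3 and without at least 2 other libraries, with edgeR adjusted p up to 0.263.

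**Figure D2:**
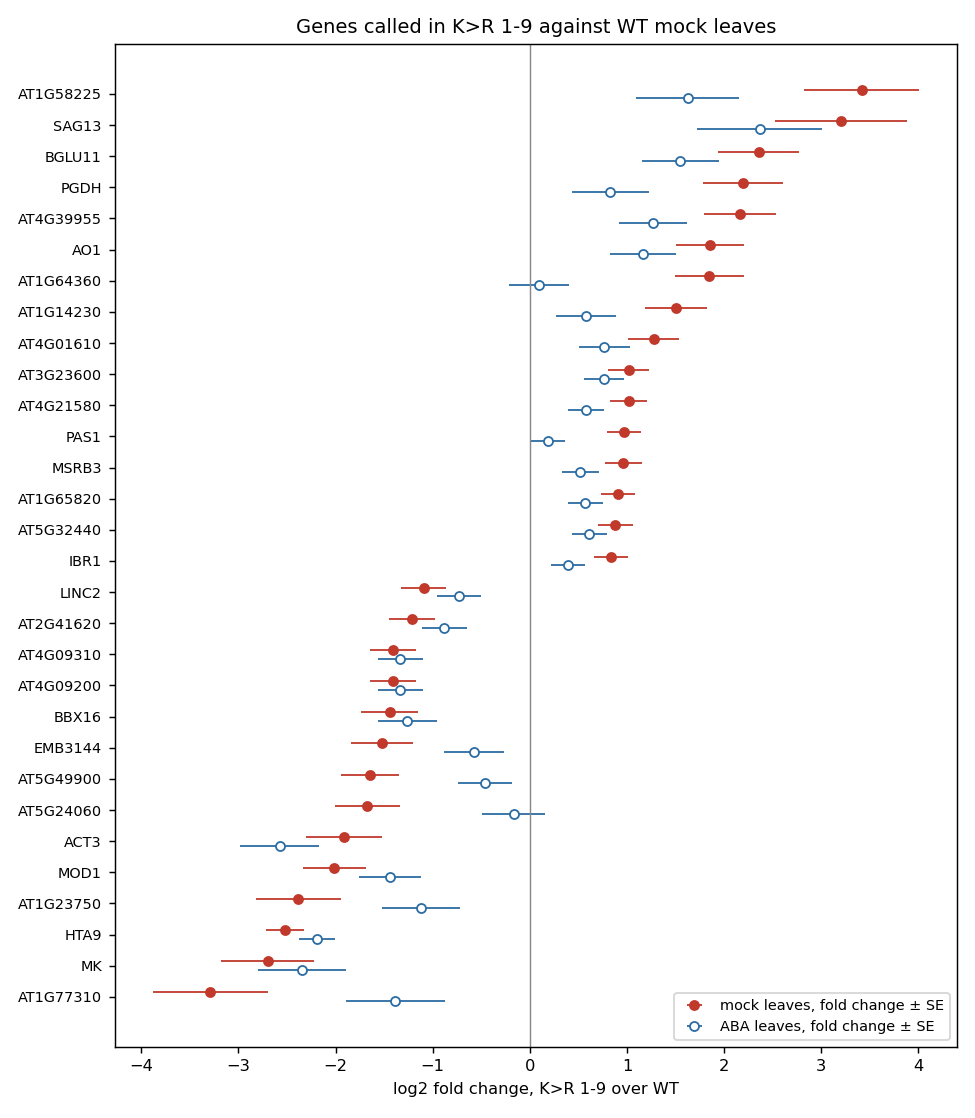
Log2 fold changes of K>R 1-9 over WT with SE for 30 of the 34 called genes, in mock leaves (filled) and in ABA leaves (open); ASP4, CSLG2, AMY1 and HTA11, at larger values, are given in the text. All open points lie on the same side of 0 as their filled points, those of AT1G64360 (0.09) and AT5G24060 (-0.17) nearest to it.

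The same genes were read in the ABA leaves, which share no library with the mock leaves. All 34 had the same sign there, as did 66.7% of all genes tested. Of the 19 higher genes, 18 had non-overlapping ranges on the higher side in ABA leaves (9.38% of all tested), AT1G64360 being the exception. Of the 15 lower genes, 13 did so on the lower side (10.4% of all tested), EMB3144 and AT5G24060 being the exceptions. In ABA leaves 14 genes were called (0.101% of 13874, 3 higher, 0.0216%, and 11 lower, 0.0793%), and 6 were called under both treatments, 17.6% of the mock and 42.9% of the ABA calls: HTA11, HTA9, MK, ACT3 and the SPRY pair. ACT3 in ABA leaves was at 5.60, 6.47 and 5.14 CPM in K>R 1-9, against 43.3, 18.5 and 42.1 CPM in WT. MK there was at 2.95, 1.89 and 5.59 CPM in K>R 1-9, against 11.9, 18.0 and 20.6 CPM in WT. With single libraries left out, the ABA count lay between 1 and 17.

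Over the 19 higher genes the median log2 fold change was 0.77 in ABA leaves and 1.85 in mock leaves, and over the 15 lower genes -1.33 in ABA leaves and -1.67 in mock leaves. The mock medians carry the choice of the genes by their mock values. PGDH in ABA leaves was at 1949, 2082 and 1797 CPM in K>R 1-9, against 822, 1390 and 1072 CPM in WT. SAG13 in ABA leaves was at 1804, 301 and 958 CPM in K>R 1-9, against 221, 277 and 97.1 CPM in WT. The difference between treatments itself was called for 0 genes in edgeR and 0 in DESeq2, with 456 genes at an unadjusted p below 0.05 in edgeR. No gene can therefore be said to differ between K>R 1-9 and WT in one treatment alone. Of the genes called in mock leaves, 7 of the 19 higher and 6 of the 15 lower had an unadjusted p below 0.05 for that difference in edgeR. All genes tested gave 456 of 13874. The choice of the called genes by their mock values enters their share.

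Gene lists were then described by counts and medians. Lists and members, here and below, were chosen with earlier results of these data known. Their shares carry that choice where they are set beside those of all genes tested. Members of a list are not independent observations. Calls by DESeq2 in a list are to be set beside its 338 calls over all genes, where edgeR gave 34. Over all genes tested the median log2 fold change was -0.01, and 12 reference genes had a median of -0.09. The jasmonate genes stood at one end. Jasmonate is the lipid-derived hormone of wounding and of defence against herbivores, and many genes of its synthesis, and its JAZ repressors, are themselves induced by it. Of 23 tested members 0 were called in edgeR and 4 in DESeq2 (CORI3, JAZ12, VSP1 and VSP2). At an unadjusted p below 0.05, 16 were higher and 0 lower, where all genes tested gave 7.67% and 6.78%. The list's median log2 fold change was 1.45 in mock and 1.19 in ABA leaves. CORI3, a cystine lyase induced by coronatine, was at 10724.5, 4831 and 2358 CPM in K>R 1-9, against 1834, 1800 and 735 CPM in WT (log2 fold change 2.04, SE 0.53, edgeR adjusted p = 0.0960). LOX2, the lipoxygenase that starts jasmonate synthesis in the plastid, was at 14355, 6626 and 6317 CPM in K>R 1-9, against 4842, 3989 and 1133 CPM in WT (edgeR adjusted p = 0.252). For CORI3 and LOX2 the K>R 1-9 and WT ranges did not overlap. AOC2, the allene oxide cyclase and the third of the most abundant members, was at 7091, 3306 and 1359 CPM in K>R 1-9, against 2063, 1623 and 680 CPM in WT (log2 fold change 1.43, edgeR adjusted p = 0.272), so its ranges overlapped. Ranges were apart on the higher side in 8 of the 23 members and on the lower side in 0 (9.05% and 8.92% of all genes tested).

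VSP2 and JAZ10 were picked from the list after their values were seen. VSP2, a vegetative storage protein and standard jasmonate output gene, was at 744, 499 and 137 CPM in K>R 1-9, against 25.9, 18.0 and 2.03 CPM in WT (log2 fold change 4.96, SE 1.24, edgeR adjusted p = 0.0814). JAZ10, a repressor, was at 172, 31.2 and 7.53 CPM in K>R 1-9, against 9.59, 10.7 and 9.17 CPM in WT, so replicate 3 overlapped WT. The summed level of the list ran from 11755 to 40612 CPM in K>R 1-9 and from 3632 to 10304 CPM in WT. K>R 1-9 replicate 1 was highest for each of the 4 genes, and without it 5 members were at an unadjusted p below 0.05 with a median of 0.82, while without WT mock replicate 3 there were 9 with a median of 1.39. A short list of touch and wound genes, which contains the jasmonate gene LOX3, summed to 612 to 2577 CPM in K>R 1-9 and 592 to 618 CPM in WT. LOX3 made up the top of that range, at 2318, 629 and 201 CPM in K>R 1-9, against 312, 463 and 129 CPM in WT. The part of touch or wounding in these values was not tested.

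Genes of glucosinolate synthesis, the sulphur-rich defence compounds of the cabbage family, stood at the other end. Of 21 tested 0 were called in edgeR or DESeq2, and 9 were lower and 0 higher at an unadjusted p below 0.05 in edgeR (6.78% and 7.67% of all genes tested). The median log2 fold change was -0.77 in mock and -1.04 in ABA leaves, and the summed level was 1346 to 1599 CPM in K>R 1-9 and 1791 to 3341 CPM in WT. CYP79F1, which makes aldoximes from chain-elongated methionine, was at 230, 148 and 218 CPM in K>R 1-9, against 317, 412 and 796 CPM in WT (edgeR adjusted p = 0.226). MAM1, the synthase of the first elongation step, was at 304, 290 and 237 CPM in K>R 1-9, against 384, 420 and 670 CPM in WT (edgeR adjusted p = 0.323). In both genes every K>R 1-9 library was below every WT library, as in 10 of the 21 members (8.92% of all genes tested). WT mock replicate 3 was the highest, and without it 2 members were lower at an unadjusted p below 0.05, with a median of -0.49. Without K>R 1-9 replicate 2 or 3 there were 4 or 3.

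**Figure D3:**
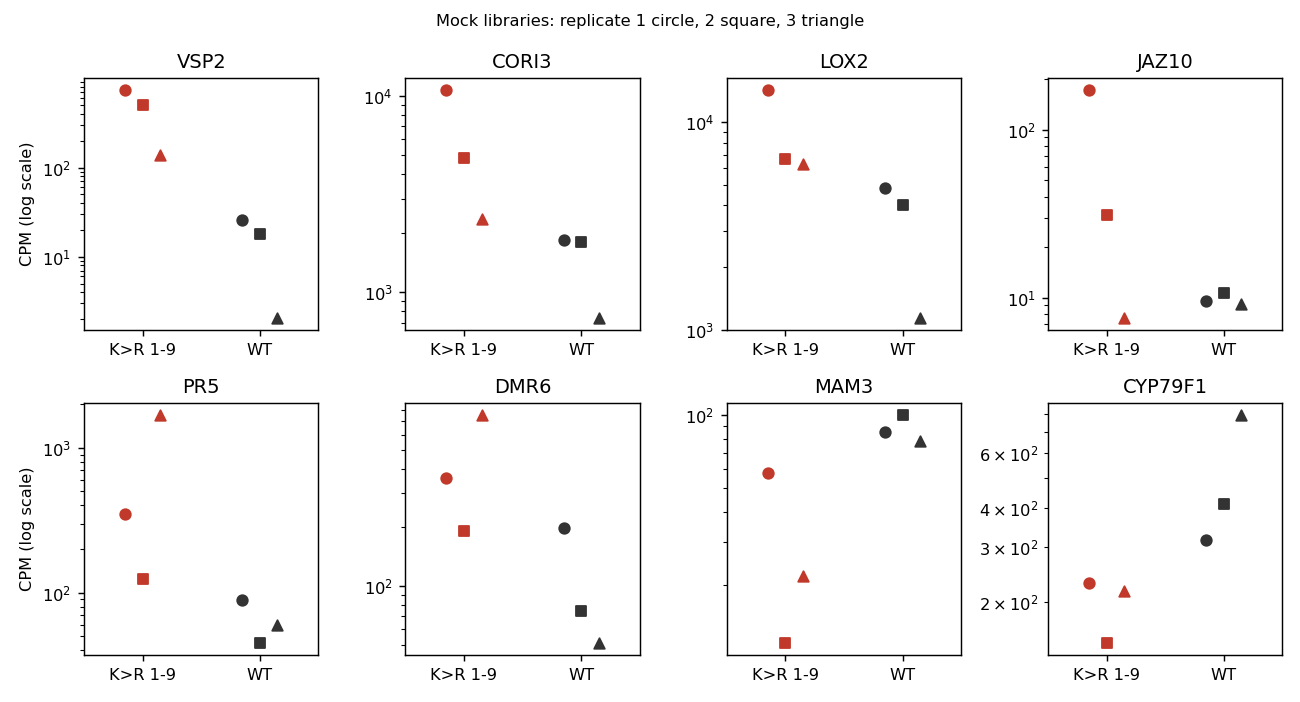
Levels in CPM on log axes of 4 jasmonate genes (top), 2 salicylate genes (PR5 and DMR6) and 2 glucosinolate genes (MAM3 and CYP79F1) in each mock library, K>R 1-9 left and WT right. K>R 1-9 replicate 1 (circle) was highest for the jasmonate genes, with VSP2 at 744 CPM, and replicate 3 (triangle) for PR5, at 1693 CPM.

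**Figure D4:**
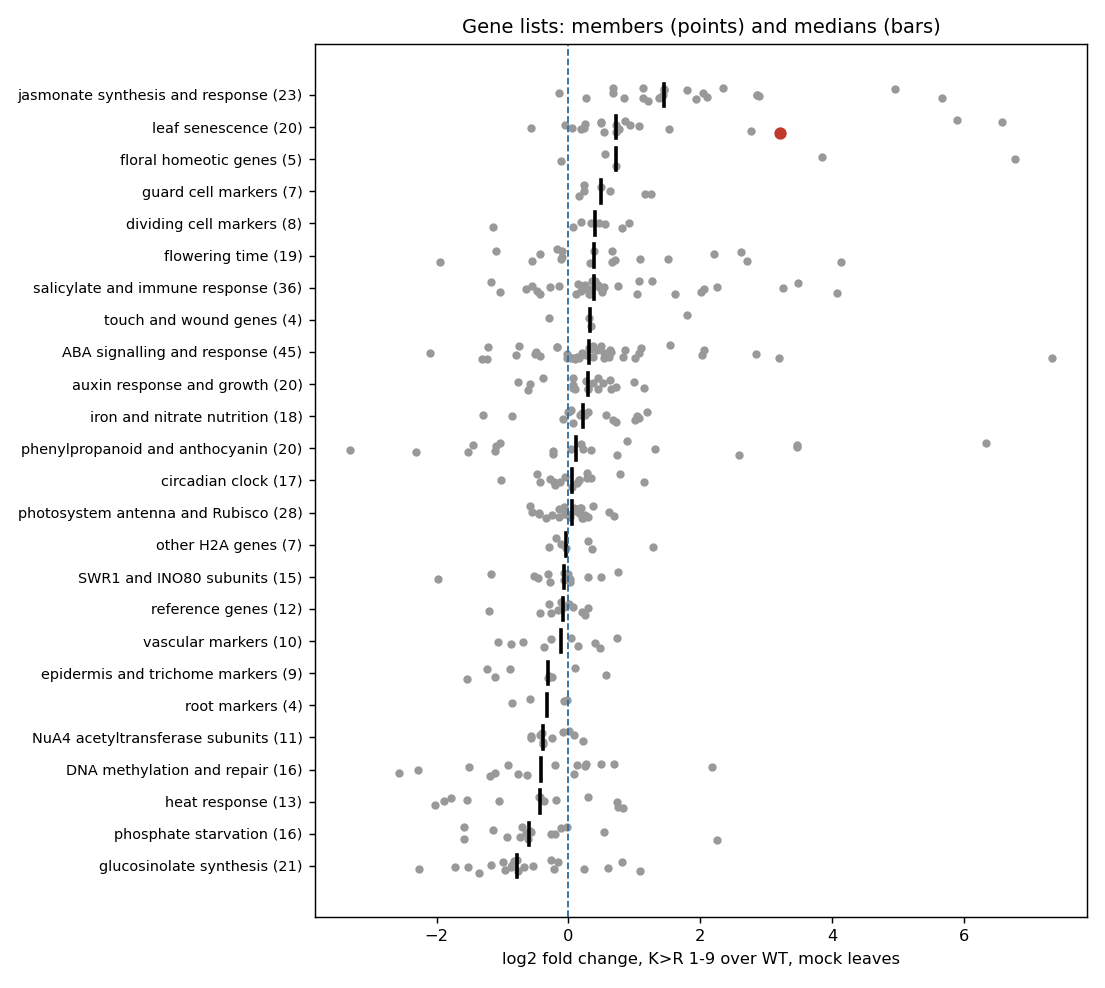
Log2 fold changes of K>R 1-9 over WT in mock leaves for the members of each list with 3 or more tested genes (number in brackets); red points passed the test, bars are list medians, and the dashed line is the median of all genes tested (-0.01). The list medians run from -0.77 for glucosinolate synthesis to 1.45 for jasmonate, and SAG13 is the single called member shown.

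Salicylate and immune genes gave 0 calls of 36 in edgeR and 1 in DESeq2, PR5. At an unadjusted p below 0.05 in edgeR 4 were higher and 1 lower, where all genes tested gave 7.67% and 6.78%. PR5, a thaumatin-like defence protein, was at 347, 123 and 1693 CPM in K>R 1-9, against 88.5, 44.5 and 59.7 CPM in WT (edgeR adjusted p = 0.114). DMR6, an enzyme that hydroxylates salicylate, was at 359, 192 and 757 CPM in K>R 1-9, against 198, 74.3 and 50.6 CPM in WT, with overlap at the lower end. K>R 1-9 replicate 3 was highest for both. It is the library that lay apart on the second principal component, and without it 2 members were higher and 3 lower at an unadjusted p below 0.05. The list's median log2 fold change was 0.38, 0.125 without that library and -0.06 in ABA leaves. WRKY18, a transcription factor of the immune response, was at 299.6, 197 and 78.6 CPM in K>R 1-9, against 105, 142 and 238 CPM in WT, with overlapping ranges. Among 20 leaf senescence genes SAG13 was the only call, the median log2 fold change was 0.72 in mock and 0.12 in ABA leaves, 4 were higher and 0 lower at an unadjusted p below 0.05 (2 higher without K>R 1-9 mock replicate 1 or WT mock replicate 3), and SAG12, a late marker, had 0 counts in all 6 libraries. The most abundant members, PAO and RCCR of chlorophyll breakdown and DIN10, a raffinose synthase, had log2 fold changes of 0.72, 0.19 and 0.25 with overlapping ranges.

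Flowering genes are the classical readout of H2A.Z loss, in which lower expression of the repressor FLC comes with early flowering. FLC is a minus-strand gene and had 0 counts in all 6 libraries, so it could not be compared. Of 19 flowering genes tested 0 were called in edgeR and 2 in DESeq2 (FT and SPL3). In edgeR 4 were higher and 1 lower at an unadjusted p below 0.05 (7.67% and 6.78% of all genes tested). The median log2 fold change of the list was 0.39, -0.14 with plus-strand genes alone and 0.02 in ABA leaves. With single libraries left out, 2 to 5 members were higher and 0 to 2 lower. SPL4, a promoter of flowering, was at 35.1, 64.2 and 22.3 CPM in K>R 1-9, against 21.2, 14.6 and 20.1 CPM in WT (log2 fold change 1.09, SE 0.32, edgeR adjusted p = 0.129). SVP, a repressor of flowering, and GI, of the photoperiod pathway, had log2 fold changes of -0.12 and -0.43 with overlapping ranges. Singled out after their values were seen, FT, the florigen, was at 1.94, 5.39 and 4.64 CPM in K>R 1-9, against 0.204, 0 and 0.265 CPM in WT, and SPL3, a relative of SPL4, at 18.4, 25.6 and 19.8 CPM in K>R 1-9, against 10.2, 5.07 and 6.53 CPM in WT. The ranges of SPL4, FT and SPL3 were apart, and their edgeR adjusted p of 0.129, 0.114 and 0.0702 missed the threshold.

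Genes of H2A.Z handling gave no call. Of 15 subunits of the SWR1 and INO80 remodellers 0 were called in edgeR or DESeq2, and SWC5, a SWR1 subunit, alone had an unadjusted p below 0.05. It was at 37.2, 29.2 and 30.7 CPM in K>R 1-9, against 42.8, 46.2 and 45.7 CPM in WT (log2 fold change -0.47, SE 0.19, edgeR adjusted p = 0.265). Of 11 subunits of NuA4, the complex that acetylates H2A.Z and H4, and 7 other H2A genes, 0 were called in either tool and 0 had an unadjusted p below 0.05 in edgeR. In DNA methylation and repair, 0 of 16 were called in edgeR and 1 in DESeq2, PARP2. In edgeR 4 were lower and 0 higher at an unadjusted p below 0.05 (6.78% and 7.67% of all genes tested). ROS1, the DNA demethylase of leaves, was at 3.60, 8.08 and 20.2 CPM in K>R 1-9, against 36.3, 19.1 and 34.8 CPM in WT (edgeR adjusted p = 0.140), with K>R 1-9 replicate 3 inside the WT range. ROS1 is a minus-strand gene. DME, a further demethylase, and IBM1, a histone demethylase, had log2 fold changes of 0.13 and 0.27 with overlapping ranges, and the list had 2 lower members without WT mock replicate 1.

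The heat list had 0 calls of 13 in edgeR and 1 in DESeq2 (ROF2). At an unadjusted p below 0.05 in edgeR 2 members were higher and 3 lower. All genes tested gave 7.67% higher and 6.78% lower, the shares to set beside the heat, phosphate and ABA lists. HSFB1, a heat shock factor, was at 157, 88.9 and 94.9 CPM in K>R 1-9, against 71.6, 52.4 and 80.4 CPM in WT (edgeR adjusted p = 0.286), with ranges apart. HSP90.1, a chaperone, was at 95.2, 49.0 and 118 CPM in K>R 1-9, against 67.1, 90.7 and 194 CPM in WT (log2 fold change -0.43), and HSC70-1, a chaperone on the minus strand, had a log2 fold change of -0.38. Both overlapped, and over the list 2 members were apart on the higher and 4 on the lower side (9.05% and 8.92% of all genes tested). Phosphate starvation genes had 0 calls of 16 in either tool, with 1 higher and 3 lower at an unadjusted p below 0.05 in edgeR. SQD1, of sulpholipid synthesis, was at 66.1, 56.4 and 62.3 CPM in K>R 1-9, against 77.1, 86.7 and 137 CPM in WT (edgeR adjusted p = 0.226). RNS1, a ribonuclease, and PAP17, an acid phosphatase, had log2 fold changes of -0.57 and -0.74 with overlapping ranges. Genes of ABA signalling and response had 0 calls of 45 in edgeR and 2 in DESeq2 (LEA7 and RD26), with 6 higher and 3 lower at an unadjusted p below 0.05. RD29A, a drought and cold marker, was at 1370, 645 and 250 CPM in K>R 1-9, against 1111, 1896 and 2627 CPM in WT (edgeR adjusted p = 0.276). Its ranges overlapped, as did those of KIN2 and LTP3, with log2 fold changes of -0.49 and 0.16.

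The median log2 fold changes of the heat, phosphate and ABA lists were -0.43, -0.60 and 0.31 in mock leaves and -0.39, -0.17 and -0.00077 in ABA leaves, and single libraries moved them. Without WT mock replicate 3 the heat median was -0.11, with 3 members higher and 2 lower at an unadjusted p below 0.05, and the phosphate median was -0.15, with 2 higher and 0 lower. Without K>R 1-9 mock replicate 2 the heat median was -0.14, and without K>R 1-9 mock replicate 3 or WT mock replicate 1 it was -0.72 or -0.78. Without K>R 1-9 mock replicate 1 the ABA median was 0.06, with 2 higher and 4 lower. The 28 photosystem antenna and Rubisco genes, 17 clock genes and 20 auxin and growth genes had 0 calls in either tool and 0, 0 and 1 members at an unadjusted p below 0.05 in edgeR.

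K>R 1-9 was last set directly against the other tail lines in mock leaves, whose supplied HTA11 differs in the tail. Against Delta28, 36 genes were called (0.259% of 13874, 18 in each direction, 0.13%). HTA11 was at 438, 420 and 491 CPM in K>R 1-9 and 10.1, 4.44 and 9.37 CPM in Delta28 (log2 fold change 5.83, SE 1.04, edgeR adjusted p = 0.0158), so the lines differ in measured HTA11 RNA as well as in the tail. MOD1 was at 19.2, 30.3 and 12.9 CPM in K>R 1-9 and 85.6, 86.3 and 94.3 CPM in Delta28 (log2 fold change -2.10, SE 0.32, edgeR adjusted p = 0.0111). AT3G16650, a WD40 repeat protein, was at 1.52, 2.69 and 1.63 CPM in K>R 1-9 and 9.09, 11.9 and 10.4 CPM in Delta28 (log2 fold change -2.45, SE 0.36, edgeR adjusted p = 0.0111), called without any single library. LPD1, a plastid lipoamide dehydrogenase, was at 4.43, 6.06 and 4.14 CPM in K>R 1-9, 19.5, 32.2 and 27.1 CPM in Delta28 and 4.49, 5.07 and 6.26 CPM in WT, so that Delta28 was the line that stood apart. LPD1 is a minus-strand gene, as are PNP-A, AT2G01130 and AT2G13550.

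Higher in K>R 1-9 than in Delta28 were PNP-A, a plant natriuretic peptide, at 11.5, 5.39 and 27.1 CPM in K>R 1-9 and 0.727, 0.655 and 0.997 CPM in Delta28 (log2 fold change 4.24, SE 0.84), and AT3G21770, a peroxidase, at 9.54, 15.9 and 7.53 CPM in K>R 1-9 and 0.455, 2.11 and 0.598 CPM in Delta28 (log2 fold change 3.26, SE 0.67). AT2G01130, a DEAD/H-box helicase, and AT2G17710 had log2 fold changes of 1.92 and 3.02. For PNP-A, AT2G01130 and AT2G17710 the ranges of K>R 1-9 and WT overlapped. The genes named by size of change were taken from those whose K>R 1-9 and Delta28 ranges do not overlap, as in 8.61% of all genes tested on the higher and 12.1% on the lower side. AT1G77310, AT1G23750 and AT2G13550 were lower than in Delta28 by log2 fold changes of -3.32, -2.15 and -2.36. Of the 10 genes named here by size of change, AT3G16650 alone kept its call through all 6 omissions of a library, and the others lost it at an edgeR adjusted p of up to 0.169. With 1 library left out the count lay between 2 and 28, being lowest without Delta28 mock replicate 1.

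Against K>R 3, in which the third lysine alone is replaced, 21 genes were called (0.151% of 13874, 3 higher, 0.0216%, and 18 lower, 0.13%). Ranges of the 2 lines did not overlap in 8.77% of all genes tested on the higher and 12.4% on the lower side. AT2G41620, the minus-strand nucleoporin gene that fell against WT, was at 16.6, 16.6 and 11.8 CPM in K>R 1-9 and 61.2, 77.3 and 50.6 CPM in K>R 3 (log2 fold change -2.07, SE 0.24, edgeR adjusted p = 0.000228), and kept its call through all 6 omissions. AT5G05060, a cystatin-like protein on the minus strand, had 0 counts in K>R 1-9 and 134 in K>R 3, at least 54.0-fold lower. RPL16A, a ribosomal protein gene with close paralogs, was at 4.70, 12.4 and 4.01 CPM in K>R 1-9 and 29.7, 40.5 and 23.5 CPM in K>R 3 (log2 fold change -2.18, SE 0.42). SCPL27, a serine carboxypeptidase-like protein, and AT2G05540, a glycine-rich protein, had log2 fold changes of -3.06 and -3.96. The 3 higher genes were CYP71B5, a cytochrome P450, at 30.7, 42.4 and 36.0 CPM in K>R 1-9 and 10.4, 10.9 and 10.8 CPM in K>R 3 (log2 fold change 1.77, SE 0.29), AT3G25290 (2.21) and AT2G47010 (2.38). AT2G41620 apart, these calls were lost at an edgeR adjusted p of up to 0.165 when 1 library was left out, and the count then lay between 1 and 11. HTA11 was not called between these lines (log2 fold change 0.70, SE 0.84, edgeR adjusted p = 0.728), with K>R 3 mock replicate 2 at 788 CPM and the other 2 at 10.9 and 36.0 CPM. In K>R 3 against WT, AT2G41620, RPL16A and CYP71B5 had log2 fold changes of 0.86, 0.87 and -0.82. None of these was called (edgeR adjusted p = 0.224, 0.373 and 0.301). In K>R 1-9 against WT the same genes had -1.21, -1.31 and 0.95, opposite in sign.

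**Figure D5:**
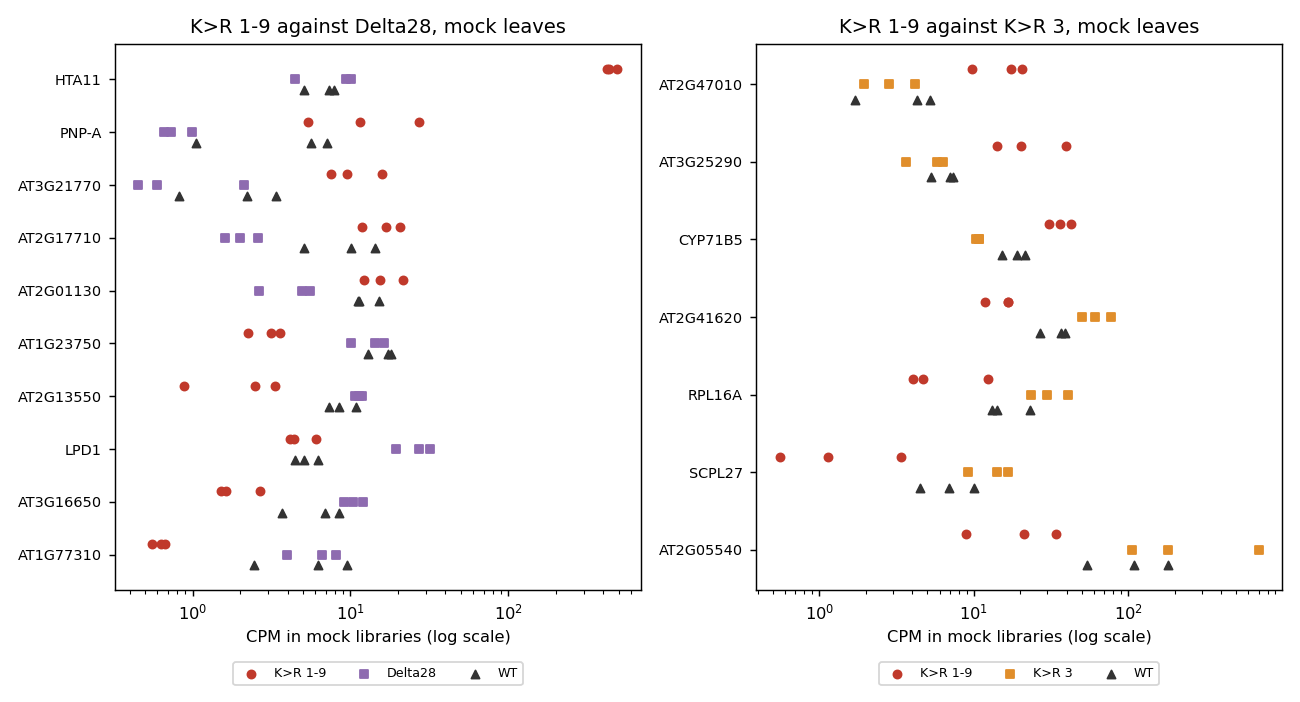
Levels in CPM on log axes in each mock library of K>R 1-9 (circles), the other line (squares) and WT (triangles), for the genes named in the comparison with Delta28 (left) and with K>R 3 (right, without AT5G05060). AT3G16650 lay at 1.52 to 2.69 CPM in K>R 1-9 and 9.09 to 11.9 CPM in Delta28, and AT2G41620 at 11.8 to 16.6 CPM in K>R 1-9 and 50.6 to 77.3 CPM in K>R 3.

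The 3 comparisons share libraries, so values of the 34 genes are given side by side rather than as overlaps. MOD1 had log2 fold changes of -2.01 for K>R 1-9, 0.09 for Delta28 and -0.85 for K>R 3, each against WT, and AT1G77310 had -3.29, 0.04 and -1.47. AT4G39955 had 2.17, 2.03 and 0.86. SAG13 had 3.21, 0.27 and 2.49, and AT1G65820 0.91, 0.16 and 0.79. Directly against Delta28, SAG13 and AT1G65820 were not called (edgeR adjusted p = 0.0577 and 0.0627). Directly against K>R 3, MOD1, AT1G77310 and AT4G39955 were not called (edgeR adjusted p = 0.134, 0.186 and 0.129). Of the 34 genes, 3 higher and 4 lower were called against Delta28 (0.13% of all genes tested each way). Against K>R 3 these were 0 and 3 (0.0216% and 0.13%). HTA9, AT4G39955 and BGLU11 were called in Delta28 against WT too (edgeR adjusted p = 3.13e-07, 0.0223 and 0.0395). That comparison of Delta28 with WT gave 22 calls (0.159% of 13874), 6 higher (0.0432%) and 16 lower (0.115%). K>R 3 against WT gave 1 call, HTA9 (0.00721%), with 1794 genes at an unadjusted p below 0.05 in edgeR.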

How the data were processed

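RNA of 24 leaf libraries (8 groups of 3 biological replicates, per the series' design text) was sequenced from the 3′ end of transcripts. The deposited files hold, per the file headers, RSEM expected counts, TPM and FPKM for each gene. Trim Galore, STAR and RSEM are named, without versions, in the submitters' processing notes; the genome build and whether counting used strand are not given there. TPM and FPKM, which the authors scaled by gene length, were not used, since reads come from the 3′ end. Comparison with the RefSeq annotation (TAIR10.1) showed that the deposited transcript lengths lack the lowest-coordinate exon in 11593 of 11674 genes with 1 transcript, and that all 5293 single-exon coding genes are missing. Names were matched by locus.

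Expected counts, as deposited, were rounded. All 24 libraries were fitted together with edgeR 4.0.16 in R 4.3.3 (TMM scaling, filterByExpr, quasi-likelihood test, Benjamini-Hochberg adjustment over 13874 genes, threshold 0.05), with SE taken as the absolute log2 fold change over the root of F. There were 16 residual degrees of freedom and a common biological coefficient of variation of 0.364. Library totals ran from 1565524 to 15086282 counts (median 7142430). Alternatives were DESeq2 1.42.0, other scaling, no filter, other sets of libraries or genes, a replicate block and omission of single libraries. Data were simulated for the mock comparison of K>R 1-9 with WT (13874 genes, 200 changed). In them 10.4% of 2-fold, 80.6% of 4-fold and 93.9% of 8-fold changes were recovered. Recovery of changes in genes of low level was not tested, and the lowest called gene was at a mean of 1.57 CPM. Recovery with a deviating library, such as K>R 3 mock replicate 2 for HTA11, was not tested either.

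Genes named in the text are the H2A.Z genes, the 12 largest changes in each direction with non-overlapping ranges and at least 5 CPM, the 8 smallest adjusted p in each direction, called members of 27 gene lists or, with fewer than 2, up to 3 members by level, and 5 in each direction from the direct comparisons. The other called genes were added, and VSP1, VSP2, JAZ10, JAZ12, FT, SPL3, PARP2, LEA7, RD26, ROF2, MAM3 and other genes of the closing section were chosen after their values were seen. The members and lists were chosen with earlier results of these data known.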

Additional observations from a re-analysis of the deposited data

How the results depend on the processing

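The calls depended on tool, libraries in the fit and single replicates more than on scaling or filter. With DESeq2 there were 338 calls in K>R 1-9 against WT, mock leaves, 181 in K>R 1-9 against WT, ABA leaves, 459 in K>R 1-9 against Delta28, mock leaves, and 230 in K>R 1-9 against K>R 3, mock leaves. With only the libraries compared in the fit, the counts in the same order were 10 (80.0% higher, against 55.9% in the fit of all 24 libraries), 3, 1 and 7. Without K>R 3 mock replicate 2 the ABA-leaf count was 7, and 25 of the 34 mock calls were kept. On plus-strand genes alone there were 67 calls against Delta28 and 13 against K>R 3. With single libraries left out, counts ran from 1 to 42 in mock leaves, 1 to 17 in ABA leaves, 2 to 28 against Delta28 and 1 to 11 against K>R 3.

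Replicate numbers did not pair the libraries: deviations of same-numbered K>R 1-9 and WT mock libraries correlated at 0.0156, -0.0222 and 0.0971. A replicate block gave 27 calls in mock leaves, 24 of them among the 34, and 8 in ABA leaves. The interaction gave 0 calls under each alternative run. With RLE scaling all 34 mock calls were kept, and with no filter 29. Over the called genes, 193 of 435 alternative values lost the call and 0 changed sign. The other 242 stayed on the same side of the threshold, counting HTA11 in DESeq2, which had no adjusted p. WT mock replicate 2 was the shallowest of the 6 libraries, with 1565524 counts; the effect of depth on the calls was not tested.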

Other observations

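Further gene lists held values that the comparisons above do not describe. Of 18 iron and nitrate genes, 0 were called in edgeR or DESeq2. In K>R 1-9 mock leaves 5 were higher and 0 lower at an unadjusted p below 0.05 in edgeR (7.67% and 6.78% of all genes tested). Without K>R 1-9 mock replicate 1 or without WT mock replicate 3 that count was 0, and with any other library left out it was 2 to 4. The list's median log2 fold change was 0.23 in mock leaves, 0.06 without WT mock replicate 3, and 0.02 in ABA leaves. NIA2, a nitrate reductase, was at 1233, 1076 and 1020.2 CPM in K>R 1-9, against 691, 758 and 634 CPM in WT (log2 fold change 0.68, edgeR adjusted p = 0.291). Its ranges were apart. NRT1.7, a nitrate transporter of the phloem, was at 2262, 1172 and 428 CPM in K>R 1-9, against 531, 784 and 556 CPM in WT, with overlap through replicate 3, and GLN2, a glutamine synthetase, had a log2 fold change of 0.17 with overlapping ranges. Of 20 phenylpropanoid and anthocyanin genes 0 were called in edgeR and 1 in DESeq2 (TT19, chosen after its values were seen), with 3 higher and 1 lower at an unadjusted p below 0.05 in edgeR. TT19, a glutathione S-transferase needed for anthocyanin transport into the vacuole, was at 87.1, 26.9 and 67.5 CPM in K>R 1-9, against 2.04, 1.69 and 10.2 CPM in WT (log2 fold change 3.47, edgeR adjusted p = 0.0970). The most abundant members, CHS and FLS1 of flavonoid synthesis and TTG1, a regulator, had log2 fold changes of -1.04, -2.31 and 0.35 with overlapping ranges. Of 5 floral homeotic genes tested 0 were called in either tool, and 2 were higher at an unadjusted p below 0.05 in edgeR (1 without K>R 1-9 mock replicate 1).

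Markers of leaf cell types gave 0 calls in edgeR. At an unadjusted p below 0.05 in edgeR, all genes tested gave 7.67% higher and 6.78% lower. Of 10 vascular genes 1 was called in DESeq2, PP2-A1, a phloem lectin, at 1328, 1494 and 1107 CPM in K>R 1-9, against 853, 764 and 732 CPM in WT (edgeR adjusted p = 0.149), while 1 member was higher and 1 lower at an unadjusted p below 0.05. The median log2 fold change of the vascular list was -0.11. Its other abundant members SULTR2;1, a sulphate transporter, and AHA3, a proton pump, had log2 fold changes of -0.69 and 0.14 with overlapping ranges. Of 9 epidermis and trichome genes 0 were higher and 3 lower at an unadjusted p below 0.05 (1 to 3 with single libraries left out), of 7 guard cell genes 1 was higher and 0 lower (0 to 3 higher), and of 8 dividing cell genes and 4 root genes none reached it in edgeR, and DESeq2 called 0 in these 4 lists. Root markers summed to 33.9 to 56.3 CPM in K>R 1-9 and 41.1 to 54.9 CPM in WT.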
